A study of Sus scrofa with 18 samples.

Results

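The regions described here carried H3K27ac in the longitudinal muscle of pregnant gilts and in the circular muscle of cyclic gilts, while no H3K27ac peak was called at the same place in the circular muscle of pregnant gilts. They were taken from the H3K27ac peaks of pregnant longitudinal muscle on chromosomes 1 to 18 and X with a fold enrichment, as the peak caller MACS2 gives it, of at least 4. The members were thus chosen by measured H3K27ac values: a peak was a member if it shared at least 1 bp with a peak of cyclic circular muscle and none with a peak of pregnant circular muscle. This rule gave 2673 member regions out of 24709 such peaks (10.8%), and out of 57010 H3K27ac peaks in the whole list of pregnant longitudinal muscle. Of the other peaks above the same threshold, 20794 overlapped a peak in both circular muscle lists, 403 overlapped the pregnant circular muscle list but not the cyclic one, and 839 overlapped neither.

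The samples were myometrium of Yorkshire gilts from the mesometrial side of the uterus. GD15M_CM and GD15M_LM were the circular and the longitudinal muscle on day 15 of pregnancy after natural mating, and CD15M_CM was the circular muscle on day 15 of the estrous cycle, with n = 2 gilts per group. The sources do not say whether GD15M_CM and GD15M_LM of these libraries came from the same gilts. No longitudinal muscle of cyclic gilts was analysed here for these marks, so the layer and the pregnancy of GD15M_LM cannot be told apart. H3K27ac, H3K4me3 and IgG were profiled by CUT&Tag, in which a protein A-Tn5 fusion cuts the DNA at antibody-bound chromatin, in 18 libraries. Peaks were called on the pooled libraries of both gilts, so each mark and group has 1 list. No value per gilt is at hand, and no test across animals could be made here. The paper compared the groups with DiffBind and reported far fewer differential H3K27ac regions between both circular muscles than there are members. It reported many more between the 2 muscle layers on day 15 of pregnancy, and how many members are among them was not examined here. A member is thus a difference in peak calls and not a tested change of the mark. Shares below carry 95% Wilson intervals, which cover counting error only, and peaks are not replicates.

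H3K27ac is an acetylation of histone H3 that marks active promoters and active enhancers, while H3K4me3 is a methylation concentrated at active promoters. The inner circular layer of the myometrium narrows the uterine lumen when it contracts, and the outer longitudinal layer shortens the uterine horn. In smooth muscle, a rise of free calcium activates calmodulin and the myosin light chain kinase MYLK, which phosphorylates the myosin that drives contraction. The samples are bulk tissue, in which fewer cells of a type and less mark per cell cannot be told apart.

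The gene ends of smooth muscle markers were examined first. H3K4me3 peaks lay at the gene ends (within 3 kb) of all 10 smooth muscle markers in each group, with median percentiles of fold enrichment of 89.0 in GD15M_LM, 85.6 in CD15M_CM and 77.0 in GD15M_CM, where a percentile is the rank of a peak in its own list. H3K27ac peaks were present at the ends of all 10 markers in GD15M_LM and CD15M_CM and of 9 in GD15M_CM, where MYLK was the exception. This exception depended on the window. A GD15M_CM peak of fold enrichment 4.97 ended at 295.9 kb of the 299.8 kb MYLK gene model, just beyond 3 kb from its end. The last GD15M_LM peak there ended at 296.1 kb, so GD15M_LM had a peak within 3 kb of the other end alone. The epithelial markers, which the muscle layers should lack, had H3K27ac peaks at 5 of 8 genes in GD15M_LM, 8 of 8 in CD15M_CM and 8 of 8 in GD15M_CM, and KRT18, KRT19 and GRHL2 had none in GD15M_LM. T cell markers had H3K27ac peaks at 3, 2 and 6 of 8 genes in the same order, and CD3E and CD3D had none in any list. H3K4me3 peaks lay at 8, 7 and 8 of these 8 genes, with median percentiles of 57.6, 52.6 and 66.4, highest in GD15M_CM. None of the 24709 peaks lay in or within 3 kb of an epithelial marker, and 1 member lay at a T cell marker, LCK. The part of the cell make-up in the results below was not tested. The lists were also of unequal size, with 57010 H3K27ac peaks in GD15M_LM, 82037 in CD15M_CM and 79877 in GD15M_CM.

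The member regions were short and of modest enrichment. Their GD15M_LM fold enrichment had a median of 4.53 (quartiles 4.24 and 5.01, highest 10.2) and their length a median of 524 bp (quartiles 361 and 740 bp), against 5.26 and 1232 bp for the peaks present in all 3 lists. Of the peaks with a fold enrichment of 4 to 5, 16.7% were members, falling to 9.04% from 5 to 6 and 2.19% at 6 or more. In the same way, members made up 27.8% of peaks under 500 bp and 2.24% of peaks of at least 1000 bp. At the threshold, the members just inside had a fold enrichment of 4.0007, 4.0010 and 4.0019, near LOC106506052 and in PLEKHA7 and MAP3K4, and the 3 peaks just outside all had 3.9996, near LOC106508831 and in LOC110260246 and LAMA4. These values follow from the lists that chose the members and are given as a description.

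In CD15M_CM the peaks over the members had a median fold enrichment of 3.79 (quartiles 3.16 and 4.43, range 2.0003 to 9.09). That median lay at the 60.1th percentile of the CD15M_CM list. A fold enrichment of at least 4 was reached in cyclic circular muscle too by 1118 members (41.8%), and 570 (21.3%) were higher there than in GD15M_LM. Coverage was mostly broad, since CD15M_CM peaks covered at least 50% of the member in 2300 cases (86.0%).

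**Figure D1:**
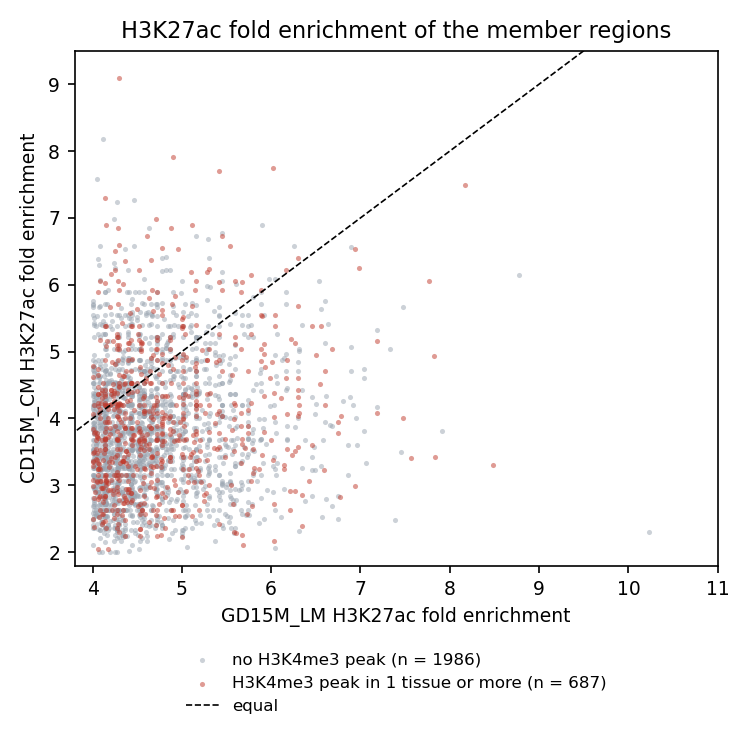
H3K27ac fold enrichment of each of the 2673 member regions in GD15M_LM (horizontal axis) and of the CD15M_CM peak that overlaps it (vertical axis), with regions that overlap an H3K4me3 peak in any tissue in red (n = 687), all others in grey (n = 1986) and equality as a dashed line. Most points crowd between 4 and 5 on the horizontal axis, and 570 lie above the dashed line.

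A GD15M_CM peak often lay in the neighbourhood of a member. The nearest H3K27ac peak of GD15M_CM lay at a median distance of 4.14 kb (quartiles 0.904 and 21.0 kb), and of 9.33 kb after merging peaks less than 1 kb apart. It was within 1 kb of 715 members (26.7%, 25.1 to 28.5), within 10 kb of 63.1% and within 100 kb of 91.4%. The gap was 0.002 kb for a member at OSR2, a transcription factor gene, whose GD15M_LM fold enrichment was 4.90 and whose CD15M_CM fold enrichment was 7.91.

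The 5 members farthest from any GD15M_CM H3K27ac peak lay at least 1268 kb from one. The farthest, at the end of CDH8, which encodes a cadherin, was 2650 kb away (chromosome 6, 23279080 to 23279808). It was followed by members at IL1RAPL1 (1847 kb), SEMA3D (1739 kb), near LOC106506534 (1296 kb) and at HTR1B, a serotonin receptor gene (1268 kb). The SEMA3D region, at a gene for a secreted guidance factor of the semaphorin family, had fold enrichments of 5.77 in GD15M_LM and 6.14 in CD15M_CM. The 4 of these 5 at genes all carried H3K4me3 in each tissue, and at SEMA3D its fold enrichment was 29.0 in GD15M_LM, 15.9 in CD15M_CM and 9.76 in GD15M_CM.

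H3K4me3 was not used to choose the members, but it was profiled in the same groups of gilts. It was also more frequent at peaks found in all 3 H3K27ac lists, as given below, so it is no independent support. An H3K4me3 peak of GD15M_LM overlapped 653 of the 2673 members (24.4%, 22.8 to 26.1), where the share over all 24709 peaks was 65.1%. For CD15M_CM it was 446 members (16.7%, 15.3 to 18.1; 61.0% of all peaks), and for GD15M_CM 287 members (10.7%, 9.62 to 12.0; 56.5% of all peaks). These 3 shares were counted on the same regions, so their intervals are no test of a difference between tissues. Peaks present in all 3 H3K27ac lists kept the same order with much higher shares, at 73.0%, 69.5% and 64.9%. The 403 peaks with H3K27ac in GD15M_LM and GD15M_CM but not in CD15M_CM had 31.5%, 25.3% and 25.6%, so both circular muscle shares were close. For the 839 peaks with H3K27ac in GD15M_LM alone the 3 shares were 15.0%, 9.89% and 7.03%, in the same order as for the members.

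**Figure D2:**
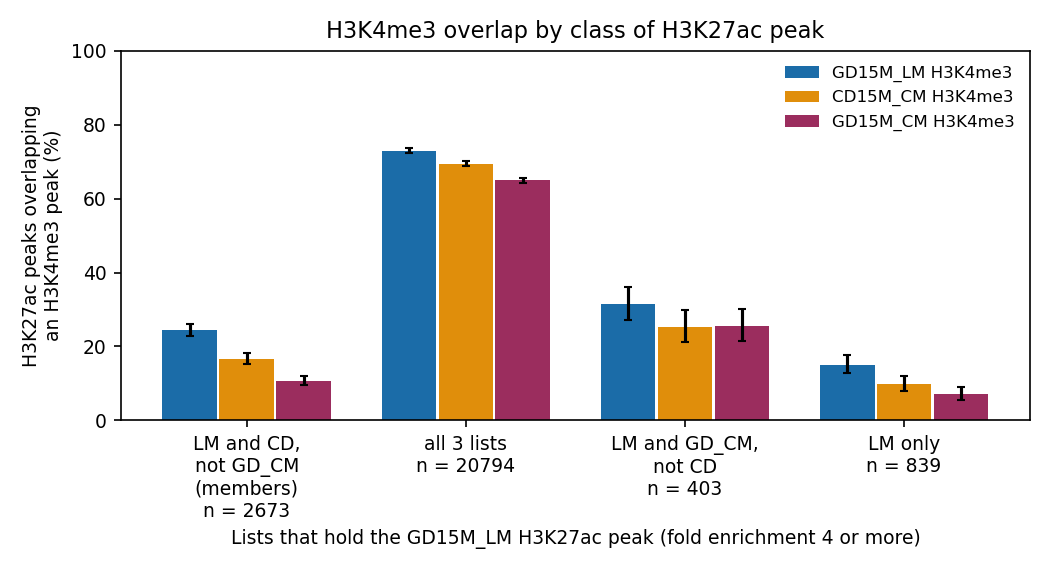
Share of GD15M_LM H3K27ac peaks of fold enrichment 4 or more (vertical axis, %) that overlap an H3K4me3 peak of GD15M_LM, CD15M_CM or GD15M_CM (bar colours), for the 4 classes of peak by H3K27ac list (horizontal axis), with 95% Wilson intervals of counting error as error bars. The members have 24.4%, 16.7% and 10.7%, and the peaks found in all 3 lists have 73.0%, 69.5% and 64.9%.

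Most members, 1986, overlapped no H3K4me3 peak in any tissue. In all 3 tissues H3K4me3 was found at 278, in GD15M_LM alone at 233, in GD15M_LM and CD15M_CM at 136, and in CD15M_CM alone at 31. Just 9 members remained, namely 6 with GD15M_LM and GD15M_CM, 2 with GD15M_CM alone and 1 with both circular muscle lists. Of the 653 members with H3K4me3 in GD15M_LM, 63.4% (59.6 to 67.0) also had it in CD15M_CM and 43.5% (39.7 to 47.3) in GD15M_CM. Over all peaks with H3K4me3 in GD15M_LM these shares were 90.8% and 85.1%. For those with H3K27ac in GD15M_LM alone they were 61.1% (52.4 to 69.2) and 46.0% (37.6 to 54.7), near those of the members.

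A peak of H3K4me3 in CD15M_CM without one in GD15M_CM was found at 167 members (6.25%, 5.39 to 7.23), close to the 5.64% of all peaks. The opposite pattern was found at 8 members (0.299%, 0.152 to 0.589), against 1.08% of all peaks. Within 3 kb of a gene end the first pattern held for 9.80% of members (7.57 to 12.6) and for 2.74% (2.46 to 3.06) of the peaks found in all 3 lists. In gene bodies it was less frequent among members, at 4.77% (3.79 to 5.99) against 9.61% (8.93 to 10.3). These shares are over all regions, and a far smaller share of members had H3K4me3 in CD15M_CM at all. Among regions that had it there, GD15M_CM lacked it at 167 of 446 members and at 1394 of 15077 among all peaks. The lack was also seen at 25 of 83 peaks with H3K27ac in GD15M_LM alone, so it was not particular to the members. In gene bodies this was 70 of 119 members and 653 of 2683 peaks found in all 3 lists.

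Among the members with H3K4me3 in all 3 tissues, the mark ranked lowest in pregnant circular muscle. For these 278 regions the median H3K4me3 fold enrichment was 16.3 in GD15M_LM, 11.9 in CD15M_CM and 6.39 in GD15M_CM. Because fold enrichments of separate lists are not on a common scale, percentiles within each list were compared, and their medians were 73.2, 69.0 and 58.8. For the peaks found in all 3 H3K27ac lists the medians were 20.2, 19.6 and 15.5 in fold enrichment and 80.8, 82.1 and 80.0 in percentile. A lower fold enrichment alone in GD15M_CM was thus not particular to the members. The percentile was lowest in GD15M_CM at 216 of the 278 regions (77.7%, 72.4 to 82.2), where the share over all peaks with H3K4me3 in the 3 tissues was 41.9%. It was 41.1% for the peaks found in all 3 H3K27ac lists and 32.1% (23.1 to 42.7) for those missing from CD15M_CM instead. For the 58 such regions with H3K27ac in GD15M_LM alone, which also lack it in GD15M_CM, it was 56.9% (44.1 to 68.8). GD15M_CM ranked below CD15M_CM at 85.3% of the 278 regions and below GD15M_LM at 87.8%, while GD15M_LM ranked above CD15M_CM at 59.7%.

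This held in each band of enrichment and of length. The share with the lowest percentile in GD15M_CM was 75.8% for members of fold enrichment 4 to 5 and 75.5% from 5 to 6. At 6 or more it was 93.5%, from few regions (29 of 31, 79.3 to 98.2). The peaks found in all 3 lists had 38.4%, 41.4% and 43.0%. For members under 500 bp, of 500 to under 1000 bp and of at least 1000 bp the share was 68.8%, 80.3% and 91.8%, against 38.1%, 40.2% and 41.6%. The 91.8% was 45 of 49 regions (80.8 to 96.8). Peaks with H3K27ac in GD15M_LM alone were not split by band. The 278 regions overlapped 271 different H3K4me3 peaks of GD15M_LM, 276 of CD15M_CM and 287 of GD15M_CM. Some regions overlapped more than 1 peak and others shared 1, so these counts do not give how many regions were separate.

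**Figure D3:**
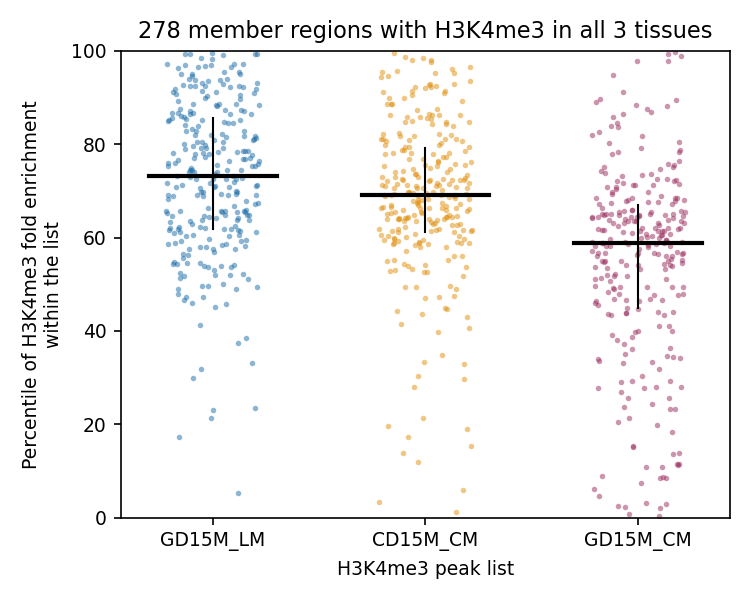
Percentile of H3K4me3 fold enrichment within its own list (vertical axis) in GD15M_LM, CD15M_CM and GD15M_CM (horizontal axis) for the 278 members with an H3K4me3 peak in all 3 tissues, 1 point per region, with the median as a horizontal bar and the quartiles as a vertical line. The medians are 73.2, 69.0 and 58.8, and the GD15M_CM points reach furthest down.

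The members lay mostly inside genes and away from their ends. Within 3 kb of either end of a RefSeq gene were 541 members (20.2%, 18.8 to 21.8; 50.5% of all peaks), in a gene body farther than 3 kb from its ends 1467 (54.9%, 53.0 to 56.8; 36.1% of all peaks), and outside genes 665 (24.9%, 23.3 to 26.6; 13.4% of all peaks). Of the 839 peaks found in GD15M_LM alone, 17.3%, 55.4% and 27.3% lay at these positions, so the positions were not particular to the members. Under 500 bp, 17.2% of members and 31.5% of the peaks found in all 3 lists lay near a gene end. Seen from the peaks, 4.34% of those at gene ends, 16.4% of those in gene bodies and 20.03% of those outside genes were members. Strand was not in the gene models used, so a gene end can be the 5′ or the 3′ end. Members outside genes had their nearest gene at a median of 23.7 kb and at most 502 kb.

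H3K4me3 in the members followed their position. At gene ends 58.2% overlapped H3K4me3 in GD15M_LM, 49.5% in CD15M_CM and 40.3% in GD15M_CM, against 93.5%, 92.4% and 90.3% of the gene-end peaks found in all 3 lists. In gene bodies the shares of members were 15.4%, 8.11% and 3.68%, and outside genes 16.8%, 8.87% and 2.26%. The order of the tissues was the same in all 3 positions.

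Members were found on all 19 chromosomes. Their share of the peaks ran from 6.53% (5.39 to 7.90) on chromosome 12 and 6.92% on chromosome 2 to 15.2% on chromosome 11 and 17% (13.96 to 20.5) on chromosome 16. On chromosome X it was 12.0%. At least 1 other member lay within 50 kb of 1084 members (40.6%), and at least 5 others lay within 50 kb of 37.

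Of 28073 RefSeq genes, 1552 (5.53%) held a member in the gene or within 3 kb of it, and 1252 of 19484 protein-coding genes (6.43%) did. Long genes held them more often, with 1.41% of coding genes under 10 kb and 32.0% of those of at least 300 kb. At least 2 members were found in 367 genes, at least 5 in 29 and at least 7 in 10. Because of the effect of length, genes are compared below by the share of their peaks that are members, which was 9.39% over all peaks in or within 3 kb of a gene.

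The gene with most members was MYLK, the myosin light chain kinase (chromosome 13, 136509878 to 136809674), with 17 of its 36 peaks. The other 19 peaks of MYLK were found in all 3 lists. When a fold enrichment of at least 4 was asked of CD15M_CM too, MYLK had 4 members and CHRM3 had 5. The 17 members spanned 291 kb and had fold enrichments of 4.02 to 6.50 in GD15M_LM and 2.56 to 6.19 in CD15M_CM. The highest in GD15M_LM lay in the gene body (chromosome 13, 136707003 to 136707680) with 6.50, with 4.21 in CD15M_CM and with the nearest GD15M_CM peak 3.25 kb away. The highest in CD15M_CM (136798791 to 136799414) had 5.45 in GD15M_LM and 6.19 in CD15M_CM.

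At the end of MYLK with the lower coordinate, 2 members (136509756 to 136510118 and 136510299 to 136510684) had GD15M_LM fold enrichments of 4.81 and 4.07 and shared a CD15M_CM fold enrichment of 2.83. The nearest GD15M_CM H3K27ac peak was 69.6 and 70.2 kb from them. All 3 tissues had an H3K4me3 peak over both, with a fold enrichment of 9.71 in GD15M_LM, 8.55 in CD15M_CM and 6.22 in GD15M_CM. The percentiles were 61.1, 64.0 and 58.2 in the same order. Of the other 15 members in MYLK, 2 overlapped H3K4me3 in GD15M_LM and none did in either circular muscle list. The 5 members with most others within 50 kb, 6 each, were all in MYLK.

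**Figure D4:**
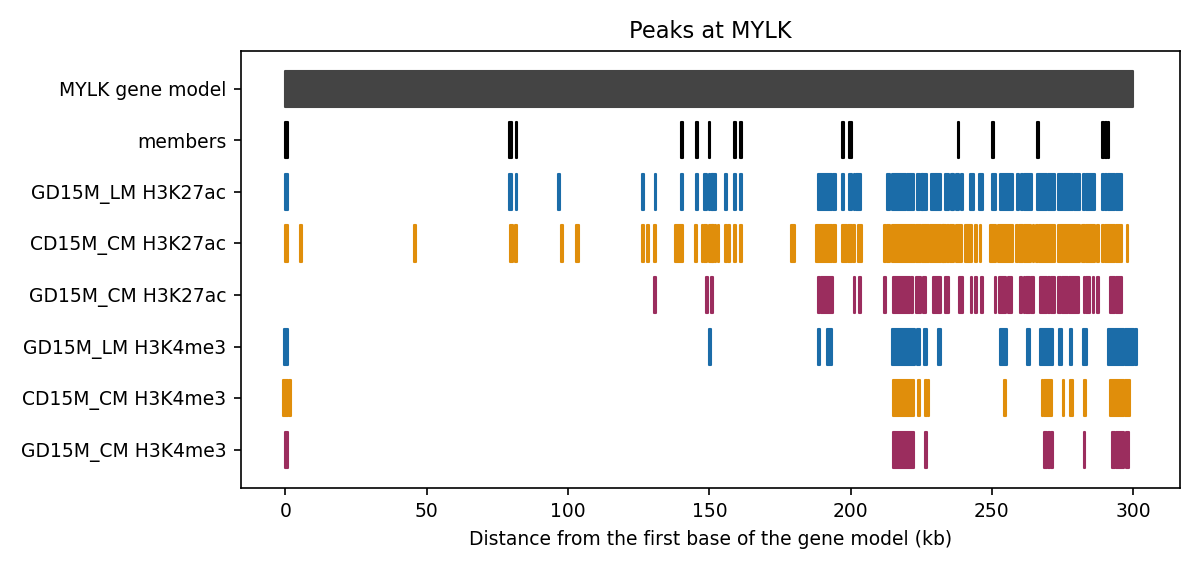
Map of MYLK with its gene model, the 17 member regions and the H3K27ac and H3K4me3 peaks of GD15M_LM, CD15M_CM and GD15M_CM in rows, by distance from the first base of the gene model in kb (horizontal axis), with the narrowest peaks widened so that they can be seen. The members and the H3K27ac peaks of GD15M_LM and CD15M_CM reach the first base, while GD15M_CM has no H3K27ac peak over the members there but has H3K4me3.

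Another 8 genes with many members each held 7, namely LOC110256592 (of 17 peaks), DIP2C (of 23), ZNF438 (of 29), CCBE1 (of 10), EML1 (of 24), MVB12B (of 10), PTPRR (of 11) and ANTXR2 (of 13). In CCBE1, a gene for a secreted factor of lymphatic vessel growth, GD15M_LM fold enrichments were 4.03 to 5.55. PTPRR, a protein tyrosine phosphatase gene, had members of 4.14 to 6.05 in GD15M_LM and 2.86 to 6.09 in CD15M_CM.

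Of the 6 gene lists compared, those of smooth muscle contraction and of growth factor signalling had the highest shares of members, and which of both came first depended on the alternative. Here 22 of 55 placed genes held a member, and 79 of 344 peaks were members (23.0%, 18.8 to 27.7), where the share over all genes was 9.39%. Without MYLK it was 62 of 308 peaks (20.1%, 16.03 to 24.96). In gene bodies 63 of 243 peaks of the list were members (25.9%; 16.4% over all peaks in gene bodies) and at gene ends 16 of 101 (15.8%; 4.34%). At the ends of the genes of the list, the median H3K4me3 percentile was 87.1 in GD15M_LM, 84.7 in CD15M_CM and 75.5 in GD15M_CM. The list includes genes that the paper named for higher expression in longitudinal muscle, so this order is given as a description.

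Receptors that start contraction are given first. CHRM3, the muscarinic receptor that couples to phospholipase C, had 6 members of 10 peaks, the highest with 7.19 in GD15M_LM and 4.17 in CD15M_CM (chromosome 14, 52356031 to 52356631). The GD15M_CM peak nearest to that region was 5.46 kb away. One CHRM3 member in the gene body (52360203 to 52360512) overlapped H3K4me3 in each tissue, with a fold enrichment of 22.3 in GD15M_LM, 5.10 in CD15M_CM and 4.06 in GD15M_CM. CHRM2, another muscarinic receptor, had 1 member with 4.87 in GD15M_LM and 5.21 in CD15M_CM, which lay 105 kb from the nearest GD15M_CM peak.

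OXTR, the oxytocin receptor, had 2 peaks, and both were members (chromosome 13, 65153181 to 65153707 and 65154481 to 65155008). Their fold enrichments were 4.17 and 4.31 in GD15M_LM and 2.93 and 4.22 in CD15M_CM, and the nearest GD15M_CM H3K27ac peak was 70.3 and 71.6 kb away. GD15M_LM had H3K4me3 of fold enrichment 12.3 over both, and CD15M_CM had 4.17 and 4.71. In GD15M_CM 1 of both carried an H3K4me3 peak, with 4.13.

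HTR2A, a serotonin receptor that also signals through phospholipase C, had 2 members at its end, with 6.30 and 4.87 in GD15M_LM and 4.04 in CD15M_CM for both. H3K4me3 there was 23.7 in GD15M_LM, 7.14 in CD15M_CM and 5.03 in GD15M_CM. At these receptor genes the members with H3K4me3 had the lowest percentile, or no peak, in GD15M_CM. The percentiles in GD15M_LM, CD15M_CM and GD15M_CM were 84.6, 54.2 and 39.0 at CHRM3 and 87.0, 61.5 and 51.9 at HTR2A. At the first OXTR region both circular muscles were close, with 44.2 in CD15M_CM and 40.1 in GD15M_CM.

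Genes of calcium release and calcium entry formed the next group. PLCB4, a phospholipase C, and ITPR1, the inositol trisphosphate receptor that releases stored calcium, had 4 members each, with GD15M_LM fold enrichments of 4.53 to 5.88 and 4.27 to 6.17. None of these 8 regions overlapped H3K4me3. RYR3, a ryanodine receptor, had 2 peaks, both members, 355 and 395 kb from the nearest GD15M_CM H3K27ac peak. The RYR3 member at the gene end had 5.38 in GD15M_LM and 4.84 in CD15M_CM, with H3K4me3 of 16.2, 17.3 and 9.04 in GD15M_LM, CD15M_CM and GD15M_CM. RYR2 had 2 members of 3 peaks, at 61.2 and 141 kb from a GD15M_CM peak. The calcium channel subunit genes CACNA1C and CACNB2 had 5 members each, of 23 and 12 peaks, and those of CACNA1C had 4.15 to 4.88 in GD15M_LM and 2.69 to 3.78 in CD15M_CM.

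In the contractile apparatus, MYH11, the smooth muscle myosin heavy chain, had 6 members of 17 peaks, with 4.01 to 5.31 in GD15M_LM and 2.81 to 5.12 in CD15M_CM. H3K4me3 overlapped 4 of them in GD15M_LM, 2 in CD15M_CM and 0 in GD15M_CM. The region with most H3K4me3 (chromosome 3, 7010583 to 7010898) had a fold enrichment of 32.4 in GD15M_LM and 10.96 in CD15M_CM. CALD1, which encodes the actin-binding caldesmon, had 3 members, while LMOD1, an actin nucleator, and MYH10, a non-muscle myosin, had 1 each. The MYH10 member differed in its order of tissues, with H3K4me3 of 18.8 in GD15M_LM, 24.7 in CD15M_CM and 20.1 in GD15M_CM. KCNMA1 had 3 members and KCNMB1 had 1, the genes for the subunits of the large-conductance calcium-activated potassium channel. PRKG1, the cGMP-dependent kinase of relaxation, had 2, and the calmodulin kinase kinase genes CAMKK1 and CAMKK2 had 1 each.

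In the growth factor list a member was found at 17 of 58 placed genes, and 45 of 212 peaks were members (21.2%, 16.3 to 27.2). Without members that had a GD15M_CM H3K27ac peak within 1 kb the share was 11.8%, where that of all peaks was 7.92%. In gene bodies it was 42 of 150 (28.0%) and at gene ends 3 of 62 (4.84%), the latter close to the 4.34% of all gene-end peaks. Among ligands and their carriers, TGFB2 had 4 members of 10 peaks, LTBP1, which binds latent TGF-beta, had 3 and LTBP2 had 2. The LTBP1 region with a GD15M_LM fold enrichment of 7.91 and a CD15M_CM fold enrichment of 3.81 (chromosome 3, 106570561 to 106570943) had its nearest GD15M_CM peak at 13.97 kb.

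Among receptors, TGFBR3, the betaglycan co-receptor, had 5 members of 16 peaks with 4.03 to 5.24 in GD15M_LM, and TGFBR2 had 2. NRP2, a co-receptor of vascular endothelial growth factors and semaphorins, had 4. ROR1 and ROR2, receptors for WNT5A, had 3 each, and those of ROR1 lay 21.0 to 158 kb from the nearest GD15M_CM peak. NOTCH2 had 3, IGF1R and EGFR had 2 each, and PDGFRB, FGFR1 and LRP6 had 1 each. In the signal path behind the receptors, TCF7L2, a transcription factor of the WNT pathway, had 5 members of 13 peaks, and SMAD3 had 1. SFRP1, a secreted WNT inhibitor, had 3 of 5.

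In the adhesion and matrix list 20 of 60 placed genes held a member, and 42 of 308 peaks were members (13.6%, 10.2 to 17.9). In gene bodies the share was 16.5%, near the 16.4% of all gene-body peaks. The basement membrane collagen genes COL4A1 and COL4A2, which lie head to head, had 6 members each and shared 1 of them. That shared region (chromosome 11, 76995654 to 76996060) had 4.29 in GD15M_LM and 6.59 in CD15M_CM. Its H3K4me3 was 24.0, 22.03 and 18.05 in GD15M_LM, CD15M_CM and GD15M_CM, at close percentiles of 87.5, 86.2 and 85.7. LAMA4 and LPP had 4 each, COL6A3 and ITGA9 had 3 each, and LAMA2, ITGA1 and DTNA had 2 each. The LAMA2 member at the gene end had 6.45 in GD15M_LM and 3.598 in CD15M_CM, 281 kb from a GD15M_CM peak, and H3K4me3 of 28.6, 16.3 and 8.41. Single members were found at COL5A1, COL12A1, COL15A1, COL21A1, FBN1, ITGA8, SGCD, CAV1, CAVIN2, PARVA and PALLD.

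Transcriptional regulators of muscle were near the background, with a member at 10 of 45 placed genes and 20 of 207 peaks (9.66%, 6.34 to 14.5). MYOCD, the myocardin co-activator of smooth muscle genes, had 2 members of 6 peaks with 4.33 and 4.53 in GD15M_LM and 3.29 and 4.42 in CD15M_CM. MEIS2 had 4 of 8 and MEIS1 had 2 of 10, both genes for homeodomain factors. The MEIS2 region at chromosome 1, 134019259 to 134021269, had 5.41 in GD15M_LM and 7.70 in CD15M_CM, with H3K4me3 of 41.2, 17.3 and 11.8 in GD15M_LM, CD15M_CM and GD15M_CM. TBX18, a T-box factor gene, had 1 peak, which was a member with 6.21 in GD15M_LM and 2.91 in CD15M_CM, 424 kb from the nearest GD15M_CM peak. Single members were also found at MEF2C, WWTR1, FOXO3, PRRX1 and FOXP1.

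For the endocrine and immune lists, the intervals were wide and held the 9.39% of all genes. In the prostaglandin and steroid list 2 of 31 peaks were members (6.45%, 1.79 to 20.7), both in PTGER3, a prostaglandin E receptor gene. In the interferon and antigen presentation list 1 of 52 peaks was a member (1.92%, 0.340 to 10.1), at IFNAR2, a subunit of the type I interferon receptor. At the gene ends of that list the median H3K4me3 percentile was 72.0 in GD15M_LM, 72.5 in CD15M_CM and 84.7 in GD15M_CM. It was highest in GD15M_CM, where that of the contraction list was lowest. Both lists include genes that the paper named for higher expression, in pregnant circular muscle and in longitudinal muscle respectively. The contrast is thus a description and no independent support.

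**Figure D5:**
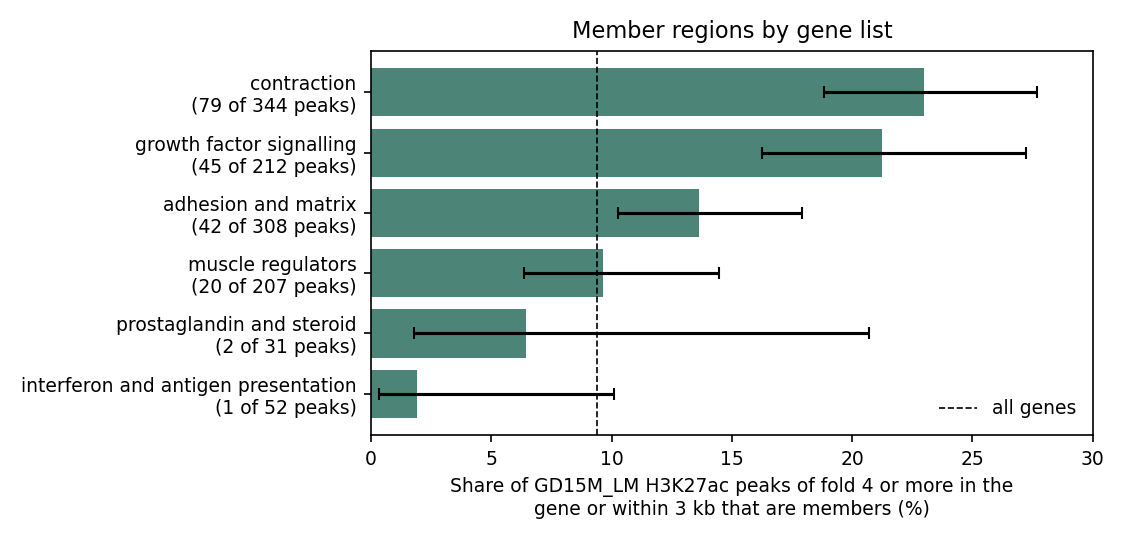
Share of the GD15M_LM H3K27ac peaks of fold enrichment 4 or more in a gene or within 3 kb of it that are members (horizontal axis, %), for 6 gene lists (vertical axis), with 95% Wilson intervals of counting error as error bars and the 9.39% of all genes as a dashed line. The intervals of the contraction (23.0%), growth factor (21.2%) and adhesion lists (13.6%) lie above the dashed line.

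The member of highest GD15M_LM fold enrichment lay 18.02 kb from GJA5, a gap junction protein gene, with 10.2 in GD15M_LM and 2.30 in CD15M_CM (chromosome 4, 99889310 to 99889911). A GD15M_CM peak lay 0.8 kb from it. It was followed by regions near LOC106510313 (8.78 in GD15M_LM and 6.14 in CD15M_CM) and in ANO6, a gene of a phospholipid scramblase (8.49 and 3.31). Other members among the 10 highest lay in LTBP1, HS3ST5, AKAP6 and PHACTR2.

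Of the 10, 3 lay at a gene end with H3K4me3 in all tissues, and in each of them that mark was lowest in pregnant circular muscle. At RORB, a nuclear receptor gene (chromosome 1, 227574210 to 227574889), H3K27ac was 8.17 in GD15M_LM and 7.49 in CD15M_CM, and the nearest GD15M_CM peak was 388 kb away. H3K4me3 at RORB was 30.2, 17.3 and 10.49 in GD15M_LM, CD15M_CM and GD15M_CM, at percentiles of 94.9, 78.0 and 68.6. At FHL1, which encodes a LIM protein of muscle (chromosome X, 111309140 to 111311110), H3K27ac was 7.57 and 3.41, and H3K4me3 was 32.4, 14.4 and 6.73. At ELMOD1 H3K27ac was 7.83 and 3.42, and H3K4me3 was 20.9, 14.1 and 6.96.

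The 10 members of highest CD15M_CM fold enrichment ranged from 9.09 to 7.24 there and from 4.05 to 8.17 in GD15M_LM, and RORB alone was also among the 10 highest in GD15M_LM. The first lay at LOC110260392 (chromosome 4, 128737176 to 128739456), with 9.09 in CD15M_CM, 4.29 in GD15M_LM and a distance of 147 kb to the nearest GD15M_CM peak. Others lay near LOC110260472 (8.18 in CD15M_CM), at OSR2 (7.91), ZMAT1 (7.74), MEIS2 (7.70) and LOC106504333 (7.57), near LOC110256922 (7.30), and in AGAP1 (7.27) and WDR25 (7.24). At ZMAT1 and OSR2 the H3K4me3 fold enrichment was higher in CD15M_CM (31.0 and 34.99) than in GD15M_LM (24.6 and 32.0), and lowest in GD15M_CM (12.2 and 13.4).

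Among the 136 members with H3K4me3 in GD15M_LM and CD15M_CM but not in GD15M_CM, the highest GD15M_LM H3K4me3 was found at LMO4, a LIM-only factor gene, with 42.9 in GD15M_LM and 4.45 in CD15M_CM. SLC2A13 followed with 41.7 and 3.49, and then a region 8.55 kb from MEIS2 with 41.2 and 12.0. In PHACTR2, a regulator of protein phosphatase 1 and actin, it was 40.1 and 24.8. The rest of the 10 highest were at LRRK2, MYH11, DSPP, LHFPL2, KIF1B and EML1. At KIF1B and EML1 the CD15M_CM values (40.4 and 29.7) were above those of GD15M_LM (24.7 and 24.5). Each value is that of the whole H3K4me3 peak that overlaps the member, and GD15M_CM can have H3K4me3 elsewhere along it. A member in MEIS2 (chromosome 1, 134019259 to 134021269) had the same 41.2 in GD15M_LM and 11.8 in GD15M_CM.

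Not all members had low H3K4me3 in pregnant circular muscle. The highest GD15M_CM H3K4me3 fold enrichment was 35.9, at RANBP9, where GD15M_LM had 39.8 and CD15M_CM 34.2. At ZSWIM6 the values were 32.0, 31.8 and 32.7 in GD15M_LM, CD15M_CM and GD15M_CM, and at NCOA3, a nuclear receptor co-activator gene, 40.6, 36.3 and 30.7. The remaining 2 of the 5 highest were near LOC106510467, 2.37 kb from MAF, with 28.2 in GD15M_CM, and at FBXO33 with 27.8. All 5 lay within 3 kb of a gene end and had a GD15M_CM H3K27ac peak at 0.13 to 1.19 kb, so these were regions beside a GD15M_CM H3K27ac peak rather than far from one.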

How the data were processed

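H3K27ac and H3K4me3 were profiled by CUT&Tag in 3 groups with 2 gilts each (possibly the same gilts in both pregnant groups), with 18 libraries including IgG. The authors mapped the reads with BWA 0.7.17-r1188 to Sus scrofa 11.1, removed reads with MAPQ under 25 and duplicates with SAMtools 1.9 and Picard 2.8.3, pooled both gilts and called peaks with MACS2 2.2.6, which gave 6 deposited lists. In each deposited list the fold enrichment is a ratio over background as MACS2 writes it, and whether IgG was its control is not given in the sources used here. The −log10 p-value and −log10 q-value of single peaks were deposited as the authors obtained them from MACS2. The headings of the p and q columns were unreadable, so they were told apart by their values, and q was not used. Neither is a test between groups, and library depth was not in the lists.

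Overlap was at least 1 bp. Coordinates are 1-based. Genes were the RefSeq models of the same assembly (Sscrofa11.1), used without strand. Where several peaks overlapped a member, the highest fold enrichment was taken. Python 3.11.15, pandas 2.3.3, NumPy 2.4.6, SciPy 1.17.1 and Matplotlib 3.10.9 were used, and the overlap and distance code was checked on simulated data.

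Named regions and genes were the 10 members of highest GD15M_LM and CD15M_CM fold enrichment, the 10 genes with most members, genes of the lists with a member, the 10 members of highest GD15M_LM H3K4me3 without one in GD15M_CM, the 5 of highest GD15M_CM H3K4me3, 3 on each side of the threshold, and the 5 farthest from a GD15M_CM peak or with most neighbours. Some genes under this rule are not reported here. The members and the gene lists were chosen with earlier results of these data known. Alternatives were other thresholds, overlaps, merging, equal list sizes, gene windows and H3K4me3 peaks. Sequences and motifs of the regions were not analysed here.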

Additional observations from a re-analysis of the deposited data

How the results depend on the processing

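The order of the H3K4me3 shares (GD15M_LM, then CD15M_CM, then GD15M_CM) was the same under all 10 alternatives that were run for them. The order of the 2 highest gene lists was not: the contraction list had 21.8% and the growth factor list 23.6% with equal list sizes, and 8.14% and 8.49% with a fold enrichment of at least 4 in CD15M_CM too. Values moved as follows, and the cause was not tested. With a fold enrichment of at least 5 there were 690 members, with H3K4me3 at 29.4% in GD15M_LM and 12.3% in GD15M_CM. With at least 3 there were 7444, with 20.2% in GD15M_LM. With a −log10 p of at least 10 there were 319, with 34.2%, 21.0% and 15.7% in GD15M_LM, CD15M_CM and GD15M_CM and 22.3% near a gene end. With a fold enrichment of at least 4 in CD15M_CM too, an alternative chosen after seeing the data, there were 1118, with 27.01%, 19.8% and 12.2%. Without members that had a GD15M_CM H3K27ac peak within 1 kb the shares were 22.6%, 14.9% and 9.30%. After merging peaks less than 1 kb apart they were 22.7%, 15.1% and 9.53%, with 18.2% near a gene end. With the same number of top peaks in the 3 H3K27ac lists they were 31.6%, 24.0% and 16.97%, with 23.7% near a gene end. With H3K4me3 covering at least 50% of the member they were 20.1%, 14.5% and 9.58%, and with H3K4me3 peaks of fold enrichment at least 5 and −log10 p at least 10 alone 14.1%, 10.3% and 6.66%. Near a gene end lay 11.5% of members with a window of 1 kb and 15.2% with protein-coding genes alone.

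The share of contraction peaks that were members was above that of all peaks under each alternative for the choice of members, down to 6.45% against 2.32% (−log10 p) and 8.14% against 4.52% (CD15M_CM too), and the number in MYLK ran from 4 to 24. The growth factor share ran from 5.05% (−log10 p) to 23.6%, with 9.35% at a fold enrichment of at least 5, 11.8% without members near a GD15M_CM peak and 14.02% after merging. The median distance to a GD15M_CM peak was 9.33 kb after merging, 7.92 kb at −log10 p of at least 10, 10.2 kb without members within 1 kb and 2.79 kb at a fold enrichment of at least 3. The share of the regions with H3K4me3 in all tissues that ranked lowest in GD15M_CM ran from 71.8% to 94.0%. No paired analysis was possible because peaks were called on pooled gilts, and for the same reason no gilt could be left out. Depth per library was not in the lists, so a missing peak is no measure of how low the mark was.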
